A study of Homo sapiens with 24 samples.

Results

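The ceramidases are the enzymes that split ceramide, the hub lipid of sphingolipid metabolism, into sphingosine and a free fatty acid. Their 5 human genes ASAH1, ASAH2, ACER1, ACER2 and ACER3 were taken by symbol from the 48162 genes of the count table, and all 5 were found once. RNA was sequenced from PPC1, a prostate cancer cell line, plated on day 1 and harvested on day 5 in 4 conditions of 6 libraries each. Parental cells received no treatment, or LCL521 at 5 µM for 5 h before harvest. Polyploid giant cancer cells (PGCC) came from cells given 8 Gy of radiation on day 2 and held back by a 20 micron filter on day 5, again without drug or with LCL521 at the same dose. LCL521 is a pro-drug that inhibits acid ceramidase, the product of ASAH1. Parental cells were neither irradiated nor filtered, so radiation, filtration and PGCC state cannot be told apart in any comparison of the populations. All libraries are of a single cell line, and the experiment was run 6 separate times with the 4 conditions in parallel.

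The family is named after the pH at which each enzyme works. Acid ceramidase, from ASAH1, works in the lysosome at the end of the breakdown of complex sphingolipids. Neutral ceramidase, from ASAH2, is best known from the intestine, where it digests dietary sphingolipids. The alkaline ceramidases are membrane proteins of the endoplasmic reticulum and Golgi: ACER1 is known from the epidermis, ACER2 from the Golgi, and ACER3 is widely expressed. The sphingosine they release can be phosphorylated to sphingosine-1-phosphate, a signal of growth and migration, or put back into ceramide. Because LCL521 acts on the enzyme, the mRNA levels below report the supply of transcript and say nothing of enzyme activity.

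The promoters of the alkaline genes ACER3 and ACER2 and of the neutral gene ASAH2 are shown because these genes span the range from a well expressed to a barely detected member. RefSeq promoter sequence (GRCh38.p14) was taken by symbol for 4 of the 5 members: ASAH2, ACER1, ACER2 and ACER3. No window was taken for ASAH1, so its promoter is not described. Each line gives the 250 bases before the gene's start on its own strand, 5′ to 3′, with every match to the GC box motif GGGCGG, on either strand, in capitals.
ACER3: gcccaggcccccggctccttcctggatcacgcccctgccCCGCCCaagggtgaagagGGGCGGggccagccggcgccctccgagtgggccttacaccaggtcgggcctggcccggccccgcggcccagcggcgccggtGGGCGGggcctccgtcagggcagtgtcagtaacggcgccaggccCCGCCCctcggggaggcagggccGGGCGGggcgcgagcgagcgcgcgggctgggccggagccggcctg
ACER2: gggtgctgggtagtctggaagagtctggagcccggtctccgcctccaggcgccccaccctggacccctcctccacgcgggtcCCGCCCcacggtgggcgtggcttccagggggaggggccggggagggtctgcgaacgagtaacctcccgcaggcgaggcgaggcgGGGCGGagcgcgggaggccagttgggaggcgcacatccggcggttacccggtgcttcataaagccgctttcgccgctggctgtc
ASAH2: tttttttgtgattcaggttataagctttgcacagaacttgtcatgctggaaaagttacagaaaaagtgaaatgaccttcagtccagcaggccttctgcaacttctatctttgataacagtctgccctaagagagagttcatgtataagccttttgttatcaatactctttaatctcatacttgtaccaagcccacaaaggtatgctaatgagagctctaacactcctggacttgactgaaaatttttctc
The windows lie at chr11:76860668-76860917 on the plus strand, chr9:19408759-19409008 on the plus strand and chr10:50251517-50251766 on the minus strand. The ACER3 window held 5 matches, the ACER2 window 2, and the ASAH2 and ACER1 windows 0. The motif was present in 42.6% of 35114 RefSeq promoter windows of the same length. G and C made up 81.2% of the ACER3 window, above 97.7% of all windows, against 72.4% for ACER2, 66% for ACER1 and 38% for ASAH2. None of the 4 windows held the CCAAT box on either strand, present in 32% of all windows. The TATA box letters TATAAA, present in 10.7% of windows, and the palindrome CACGTG, present in 6.35%, were not found in them either. These matches describe the letters of the windows and are not evidence of binding.

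Depth was similar in all conditions, with 14835246 to 19906601 counts per library. On a principal component analysis the 8 libraries of replicates 4 and 5 stood apart from the other 16 along the second component, which held 16.5% of the variance, in every condition. Between the populations without drug, ASAH1, ACER2 and ACER3 had log2 fold changes of -0.41, 1.22 and 0.26 without those replicates, and larger moves are given beside the results they touch. Defining markers of the line's label were mixed: the epithelial keratins KRT8 (50.6 to 222 CPM, reads scaled to a common library size) and KRT18 (144 to 268 CPM) and the mesenchymal filament VIM (352 to 597 CPM) were high, while the epithelial surface gene EPCAM (0 to 0.852 CPM) was at or near 0 and CDH1, E-cadherin, lay between 1.06 and 6.5 CPM. The markers did not move together between the populations without drug. KRT8 went from 56.4 to 87.2 CPM in parental cells to 144 to 222 CPM in PGCC. KRT18 lay lower in PGCC, at 150 to 196 CPM against 184 to 268 CPM in parental cells. CDH1 lay between 1.58 and 5.75 CPM in parental cells and between 1.5 and 2.8 CPM in PGCC. VIM lay between 377 and 492 CPM in parental cells and between 451 and 597 CPM in PGCC. Of the blood cell markers, CD3E had at most 1 count in a library, and PTPRC lay between 0.406 and 2.74 CPM in parental cells and between 2.34 and 4.03 CPM in PGCC. The part of these shifts in the ceramidase differences was not tested.

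To order the family by level, counts were divided by gene length and given as RPKM (CPM per kilobase of the length listed for the gene). In parental cells ASAH1 stood at 25 ± 1.62 RPKM (SD, n = 6), ACER3 at 6.46 ± 0.979 and ACER2 at 0.163 ± 0.0747. ACER1 (0.0984 ± 0.073) and ASAH2 (0.012 ± 0.0108) were lower still. ASAH1 was thus above 80.4% of the 14555 genes kept by the filter on low counts over all 24 libraries, ACER3 lay near their middle, above 51.1%, and ACER2 was above 5.5%. The libraries of ASAH1, ACER3 and ACER2 did not overlap in parental cells (22.9 to 27.6, 5.16 to 7.76 and 0.0778 to 0.278 RPKM), whereas those of ACER2 and ACER1 (0 to 0.201 RPKM) did. In PGCC the same order held for the upper 3 genes, at 18.9 ± 1.45, 7.64 ± 0.828 and 0.396 ± 0.121 RPKM, and ACER2 no longer overlapped with ACER1 (0.269 to 0.591 against 0 to 0.104 RPKM). ACER2, ACER1 and ASAH2 rest on few reads, so their levels carry large counting error.

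**Figure D1:**
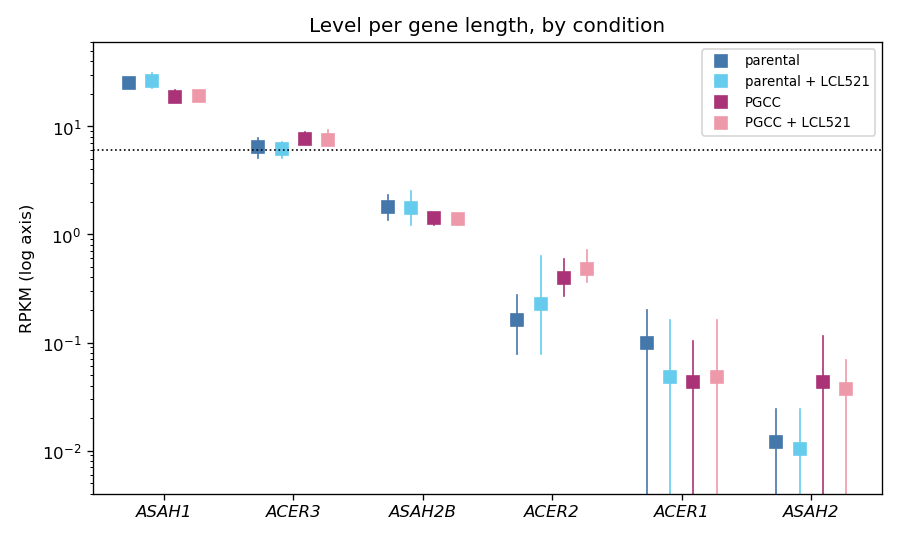
Mean RPKM of each gene on a log axis (squares; lines span the lowest to the highest of 6 libraries and run off the axis where a library is at 0) in the 4 conditions, with the median of the genes kept in parental cells as a dotted line at 6.11 RPKM. ASAH1 lies highest, ACER3 near the dotted line, and ACER2, ACER1 and ASAH2 below 1 RPKM in every condition.

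ASAH1, the drug target, was lower in PGCC than in parental cells. The gene (ENSG00000104763) is on chromosome 8, minus strand, at 17913934 to 17942494 of hg19. It lay between 59.8 and 72 CPM in parental cells (median 65.3) and between 46.2 and 56.3 CPM in PGCC (median 47.8). The highest PGCC library was below the lowest parental library, so the groups did not overlap, and ASAH1 was lower in PGCC in 6 of 6 same-numbered pairs. The level in PGCC was 0.759 times that in parental cells (95% interval 0.679 to 0.848), a log2 fold change of -0.40 (SE 0.0747, adjusted p = 0.000596, quasi-likelihood test of edgeR, Benjamini-Hochberg over 13812 genes). An exact two-sided permutation test over all divisions of the 12 libraries into 6 and 6 gave p = 0.00216, the smallest it can give. That test ignores the pairing. The exact permutation of the signs of the 6 same-numbered pairs gave p = 0.0312, likewise its smallest value. Among all genes tested, 47.4% passed the threshold in this comparison and 26.8% had groups that did not overlap in CPM, and 47.2% had a larger change than ASAH1. The decrease was therefore clear of replicate error, and its size was near the middle of the changes of all genes tested. Reads of an overlapping transcript on the opposite strand, CTD-2547L16.1, numbered 1 to 13 per library, against 773 to 1395 for ASAH1.

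With LCL521 in both populations the difference was seen again, in other libraries of the same 6 runs. Same-numbered libraries with and without drug deviated together (lowest correlation 0.458 in parental cells and 0.385 in PGCC). The second comparison is therefore not an independent repeat of the first. ASAH1 ranged from 59.3 to 81.1 CPM in parental cells with LCL521 (median 67.8) and from 47.3 to 53.8 CPM in PGCC with LCL521 (median 50). These groups did not overlap either, as for 28.1% of genes tested. The fold was 0.745 (95% interval 0.659 to 0.842), a log2 fold change of -0.42 (SE 0.0828, adjusted p = 0.000719 from the same edgeR test). ASAH1 passed the threshold with this sign in each alternative run for both comparisons, with log2 fold changes of -0.42 to -0.31 without drug and -0.47 to -0.36 with drug.

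**Figure D2:**
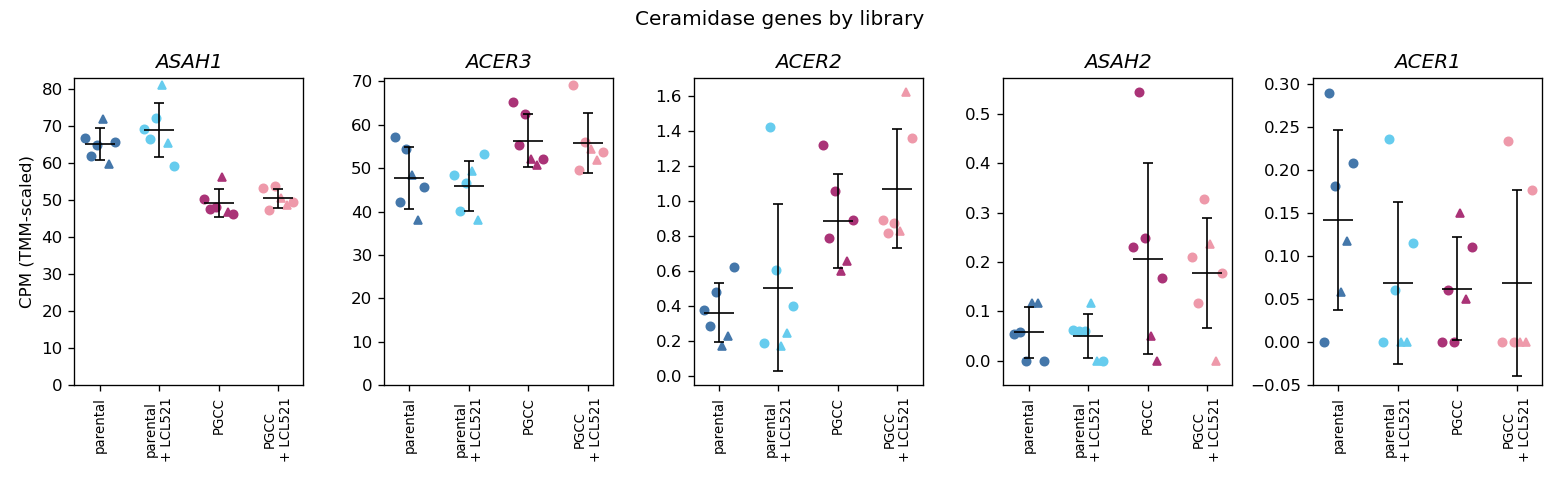
CPM of each ceramidase gene in each of 24 libraries by condition, 1 panel a gene with its own linear axis (triangles, replicates 4 and 5; circles, the other replicates; black bars, mean and SD of 6 libraries). ASAH1 is lower in both PGCC conditions with no overlap, ACER3 is shifted up with overlap, 1 parental library with LCL521 stands far above the others in ACER2 at 1.42 CPM, and ASAH2 and ACER1 stay below 0.6 CPM.

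Exposure to LCL521 for 5 h was not accompanied by a detectable change in the mRNA of its gene. In parental cells ASAH1 was 65.2 ± 4.23 CPM without and 69 ± 7.35 CPM with LCL521 (SD, n = 6 each), a fold of 1.06 (95% interval 0.94 to 1.2; adjusted p = 1, edgeR). In PGCC it was 49.2 ± 3.77 and 50.5 ± 2.57 CPM, a fold of 1.03 (95% interval 0.937 to 1.13; adjusted p = 1, edgeR). Blocking on the replicate number, the intervals narrowed to 0.992 to 1.14 in parental cells and 0.965 to 1.1 in PGCC. A change of ASAH1 mRNA by LCL521 as large as its difference between the populations thus lay outside these intervals. The effect of LCL521 did not differ detectably between the populations (log2 difference -0.04, SE 0.104, adjusted p = 1, edgeR interaction on 24 libraries). In order of level the conditions were parental cells with LCL521, parental cells, PGCC with LCL521 and PGCC. Neighbours that differ in the drug did not differ beyond their spread.

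No other member tested was called for LCL521. Across all genes the edgeR test called 0% in parental cells (0 of 13277, with 71 at an unadjusted p under 0.05) and 0.00707% in PGCC (1 of 14151, with 218 at an unadjusted p under 0.05). With the replicate block these shares were 0.866% and 1.65%, and none of the members tested was among the called genes. DESeq2 without the block called 0 genes in parental cells and 6 in PGCC. For the difference of the drug effect between populations, edgeR called 0% of 14555 genes without the block (60 at an unadjusted p under 0.05) and 0% with it (148). DESeq2 called 0 there with or without it. ACER3 had folds of 0.97 (95% interval 0.815 to 1.16) in parental cells and 0.992 (0.872 to 1.13) in PGCC with LCL521. The ASAH1 value in PGCC was 0.08 on the log2 scale without replicates 4 and 5, in place of 0.04 (adjusted p = 1 in both, edgeR). ACER2 had a fold of 1.21 (0.823 to 1.77) in PGCC, an interval too wide to show or to leave out a moderate change. On the log2 scale the ACER2 value was -0.05 without those replicates, in place of 0.27.

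ACER3, the widely expressed alkaline ceramidase, lay higher in PGCC by a small margin. It is at 76571911 to 76737841 on chromosome 11 of hg19, plus strand (ENSG00000078124). Parental libraries ranged from 38.1 to 57.2 CPM (median 47) and PGCC libraries from 50.7 to 65.3 CPM (median 53.7). The ranges overlapped, but ACER3 was higher in PGCC in 6 of 6 same-numbered pairs. The exact permutation of the signs of the 6 pairs gave p = 0.0312, the smallest it can give and the same as for ASAH1. Over all divisions of the libraries into 6 and 6, the exact permutation test gave p = 0.0476. The fold was 1.19 (95% interval 1.01 to 1.4), a log2 fold change of 0.25 that did not pass the threshold (SE 0.108, adjusted p = 0.0725, edgeR). With the replicate block it did, at a log2 fold change of 0.26 (SE 0.0683, adjusted p = 0.0106, edgeR), and it passed in each blocked fit that left out 1 replicate number (adjusted p between 0.00967 and 0.0425). The block called 56.2% of all genes in this comparison. Without it 47.4% were called, and 64.3% had a larger change than ACER3. The share of all genes with 6 of 6 pairs in 1 direction was not determined.

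In the libraries with LCL521 the ACER3 difference was of the same size. Parental cells with LCL521 ranged from 38.1 to 53.3 CPM (median 47.4) and PGCC with LCL521 from 49.6 to 69.1 CPM (median 54.1). ACER3 again was higher in PGCC in 6 of 6 pairs, at a log2 fold change of 0.30 (SE 0.105, adjusted p = 0.0264, edgeR). Of the genes tested there, 48.9% passed the threshold and 57.1% had a larger change than ACER3. The adjusted p with the block was 0.0113, against 56.3% of genes called. Without the block the call was lost in fits that left out replicate 1, 2, 3 or 5 (adjusted p between 0.0517 and 0.0898). It was lost as well without the single PGCC library of replicate 1, the highest for ACER3, at 0.24 (adjusted p = 0.0669), and without the parental library of replicate 2, at 0.26 (adjusted p = 0.0637). Every blocked fit that left out a replicate kept the call, with adjusted p between 0.00641 and 0.0418 by edgeR.

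**Figure D3:**
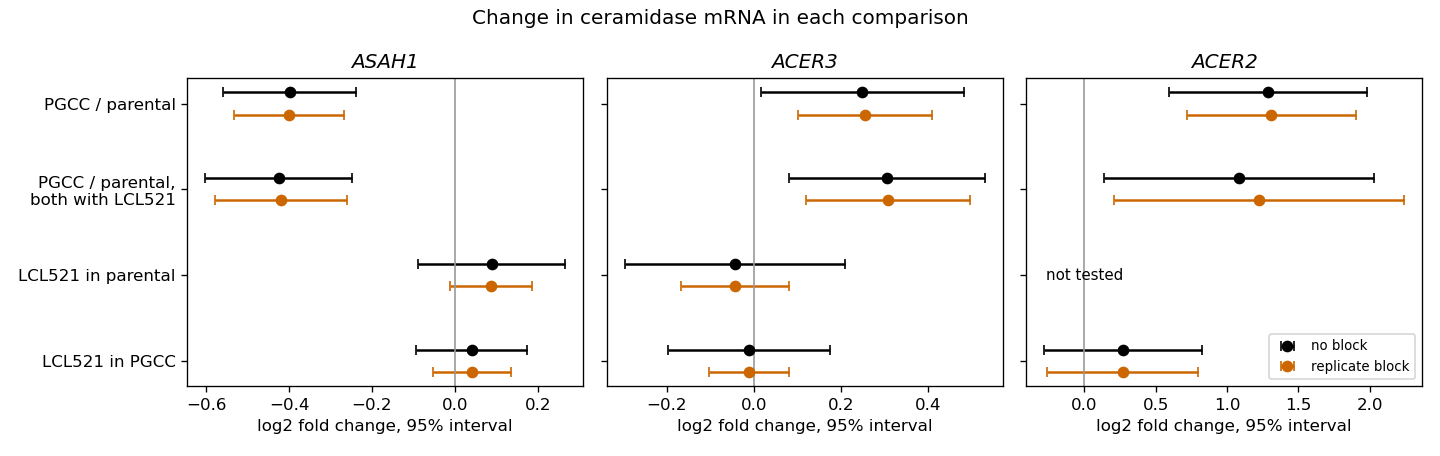
Log2 fold changes with 95% intervals of ASAH1, ACER3 and ACER2 in 4 comparisons, each panel on its own axis, from edgeR without (black) and with (orange) the replicate block. ASAH1 lies below 0 and ACER3 and ACER2 above 0 between the populations, and every LCL521 interval spans 0; ACER2 was not tested for LCL521 in parental cells.

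The balance of the 2 well expressed genes can be read within each library, where scaling of the library cancels. In parental cells there were 0.73 ± 0.0933 ACER3 counts per ASAH1 count (0.636 to 0.858), and in PGCC 1.15 ± 0.141 (0.926 to 1.3). With LCL521 the ratios were 0.672 ± 0.118 (0.581 to 0.898) and 1.1 ± 0.0979 (1.04 to 1.3). All 12 PGCC libraries were above all 12 parental libraries in this ratio. ASAH1 alone already did not overlap between the populations, as for 26.8% of genes without drug and 28.1% with LCL521. Ratios of other genes were not computed, so the separation is not read as particular to this pair. Per gene length, where the longer ACER3 transcript is allowed for, ACER3 reached 0.258 ± 0.0328 of the ASAH1 level in parental cells and 0.407 ± 0.0497 in PGCC. Of the summed RPKM of the 5 genes, ASAH1 made up 78.8% ± 2.04 in parental cells and 69.9% ± 2.73 in PGCC, ACER3 20.3% ± 2.06 and 28.3% ± 2.45, and ACER2 0.512% ± 0.229 and 1.47% ± 0.407 (SD, n = 6). The sum itself was 31.7 ± 2.27 RPKM in parental cells and 27 ± 1.69 RPKM in PGCC. These ratios are descriptions without a test, and they combine the opposite shifts of both genes.

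**Figure D4:**
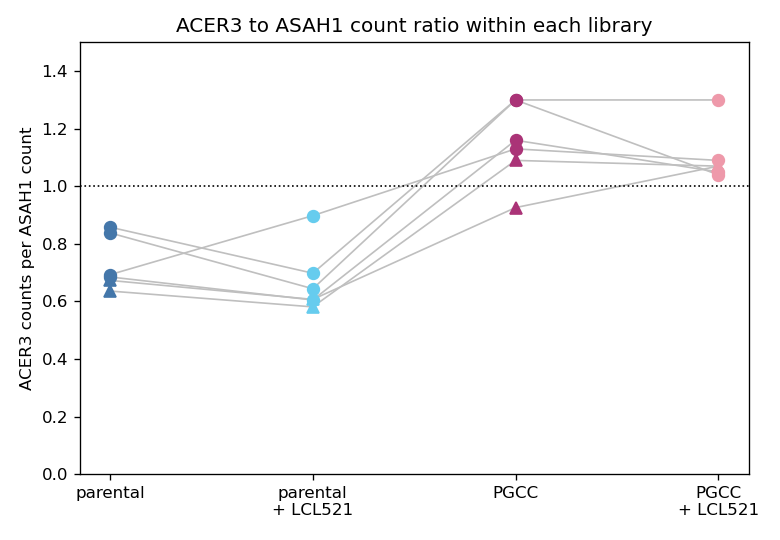
ACER3 counts per ASAH1 count in each library by condition, with grey lines joining libraries of the same replicate number (triangles, replicates 4 and 5; dotted line at 1). Parental libraries lie between 0.581 and 0.898 and PGCC libraries between 0.926 and 1.3.

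ACER2, the Golgi ceramidase, was higher in PGCC at a very low level. The gene (ENSG00000177076) is on chromosome 9, plus strand, at 19408925 to 19452018 of hg19. It had 3 to 9 counts per parental library (0.174 to 0.623 CPM, median 0.336) and 12 to 23 per PGCC library (0.601 to 1.32 CPM, median 0.839). On the CPM scale the highest parental and the lowest PGCC library overlapped slightly, and ACER2 was higher in PGCC in 6 of 6 pairs. The fold was 2.44 (95% interval 1.51 to 3.94), a log2 fold change of 1.29 (SE 0.323, adjusted p = 0.00475, edgeR). ACER2 passed the filter on low counts through its PGCC libraries, of which 6 of 6 reached the cutoff of 0.569 CPM against 1 of 6 parental libraries. With no filter beyond 1 count in any library, where this selection does not act, the log2 fold change was 1.26 (SE 0.373, adjusted p = 0.0141, edgeR).

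The same gene was less settled in the libraries with LCL521, where 1 library stood apart. Parental cells with LCL521 had 3, 3, 4, 7 and 10 counts in 5 libraries and 24 in replicate 2, and PGCC with LCL521 had 14 to 27 counts. The log2 fold change was 1.08 (SE 0.443, adjusted p = 0.0554, edgeR), with a higher value in PGCC in 5 of 6 pairs. As without drug, ACER2 passed the filter through its PGCC libraries, of which 6 of 6 reached the cutoff of 0.593 CPM against 1 of 6 parental libraries, and with no filter beyond 1 count it was 1.03 (SE 0.429, adjusted p = 0.0768, edgeR). The replicate block gave 1.23 and an adjusted p of 0.0421, but this call was lost in 5 of the 6 blocked fits that left out a replicate number (adjusted p between 0.055 and 0.108) and kept without replicate 2 (adjusted p = 0.00479). Without the library of 24 counts it was 1.71 (adjusted p = 0.00185, edgeR), and without replicates 4 and 5 it was 0.61 (adjusted p = 0.299) or, with the block, 0.72 (adjusted p = 0.204). For LCL521 in parental cells ACER2 could not be tested after the filter on low counts, since too few libraries reached the cutoff. With no filter beyond 1 count its log2 fold change there was 0.49 (SE 0.528) and was not called.

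In all, 2 of the 3 members tested passed the threshold between PGCC and parental cells, ASAH1 downward and ACER2 upward, and 3 of 3 did with the block. So did 2 of 3, ASAH1 and ACER3, with LCL521 in both populations, and 3 of 3 with the block, where ACER2 rested on which replicates were kept. Shares of this kind on 3 genes cannot be told from the 47.4% to 56.3% of all genes called. A sequenced library reports shares of its RNA: a lower share of a transcript in fewer cells and less of it per cell cannot be told apart, and neither can a change per giant cell be read from CPM.

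ASAH2 and ACER1 were barely detected. ASAH2 (ENSG00000188611, chromosome 10, minus strand, 51944621 to 52008370 of hg19) had 0 to 9 counts per library and 51 counts over all 24. Parental libraries held 0 to 2 counts, parental libraries with LCL521 0 to 2, PGCC libraries 0 to 9 and PGCC libraries with LCL521 0 to 6. The sums over 6 libraries were 6, 5, 21 and 19 counts. Both PGCC groups thus held more reads, but the libraries overlapped. Without drug, the log2 CPM of ASAH2 in PGCC minus parental cells averaged 1.47 over the pairs of replicates 1, 2, 3 and 6 and -0.74 over those of replicates 4 and 5. The latter value rests on libraries of 0 to 2 counts. With LCL521 in both populations the averages were 0.99 and 0.30, so the sign did not turn there. Fitted with no filter beyond 1 count, the difference between PGCC and parental cells did not pass the threshold (adjusted p = 0.141 without drug and 0.1 with LCL521, edgeR). ACER1 (ENSG00000167769, chromosome 19, minus strand, 6306153 to 6333640 of hg19) had 0 to 5 counts per library and was at 0 in 10 of 24. Its sums were 14 counts in parental cells and 7 in each of the other conditions, and no difference passed the threshold in the unfiltered fit (adjusted p = 0.334 for PGCC against parental cells, edgeR). A count of 0 allows up to 3 counts, or 0.15 to 0.208 CPM at these depths, for counting error only.

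ASAH2 has a relative on chromosome 10, ASAH2B, which shares sequence with it, so reads of the pair may have been split or dropped by the counting. Counts of ASAH2B are not read as a measure of neutral ceramidase. ASAH2B held 73 to 161 counts per library, far more than ASAH2. It was 6.68 ± 1.53 CPM in parental cells and 5.31 ± 0.462 CPM in PGCC (log2 fold change -0.33, SE 0.158, adjusted p = 0.105, edgeR). Without replicates 4 and 5 it was -0.12 (adjusted p = 0.528), and with LCL521 in both populations -0.31 with and -0.05 without those replicates. With the counts of ASAH2 and ASAH2B summed, the log2 fold change over all replicates was -0.28 (adjusted p = 0.154). A further copy, ASAH2C, had 0 to 7 counts.

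Among proteins related to the ceramidases, 1 of 4 tested genes was called higher in PGCC and 0 lower, where 47.4% of all genes were called, and with the block 2 were higher and 0 lower, against 56.2%. NAAA, an acid amidase related in sequence to acid ceramidase that breaks down N-acylethanolamines, rose from 7.33 to 12.4 CPM (log2 fold change 0.77, SE 0.129, adjusted p = 0.000252, edgeR). Opposite shifts were thus called for ASAH1 and this relative. The adiponectin receptors ADIPOR1 and ADIPOR2, which have been linked to ceramidase activity, had log2 fold changes of 0.18 and -0.08 (adjusted p = 0.0667 and 0.373), and ADIPOR1 was called with the block (adjusted p = 0.0368). Their levels were 99.8 to 101 CPM in parental cells.

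Acid ceramidase acts last in a chain of lysosomal enzymes and activator proteins, and 11 genes of that chain are reported. Of the 10 tested, 8 were called higher in PGCC, 0 lower and 2 not called, with a median log2 fold change of 0.607 against -0.028 over all genes tested. Of all genes tested, 47.4% were called in either direction. A further gene of the chain, not called, is not reported, and leaving it out raised the share called and the median, so neither is read as a result about the chain. GALC, which removes galactose from galactosylceramide, rose by the most, from 1.86 to 6.24 CPM (log2 fold change 1.74, SE 0.281, adjusted p = 0.000181, edgeR). GLA, the alpha-galactosidase of globosides, rose from 18.4 to 39.8 CPM (1.12, SE 0.142, adjusted p = 2.38e-05). Not called were PSAP (-0.07), the precursor of the saposins that assist acid ceramidase, and SMPD1 (-0.08), acid sphingomyelinase. HEXA was listed at 0 counts in all 24 libraries and was not tested. With LCL521 in both populations 8 of 10 were again called higher and 0 lower, against 48.9% of all genes called in either direction, with a median of 0.623 against -0.00642 over all genes. ARSA, arylsulfatase A, was among the 8 in both comparisons but not called with no filter beyond 1 count (adjusted p = 0.0887 and 0.0723, edgeR). ASAH1, at -0.40 and -0.42, lay below each of the 10 in both comparisons. NEU1, lysosomal sialidase, was the single gene of the lists called for LCL521, with the block: it rose by 0.22 (adjusted p = 0.0408) in parental cells and by 0.20 (adjusted p = 0.012) in PGCC on the log2 scale. With the block 0.866% of all genes were called for LCL521 in parental cells and 1.65% in PGCC. Without the block NEU1 was not called.

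**Figure D5:**
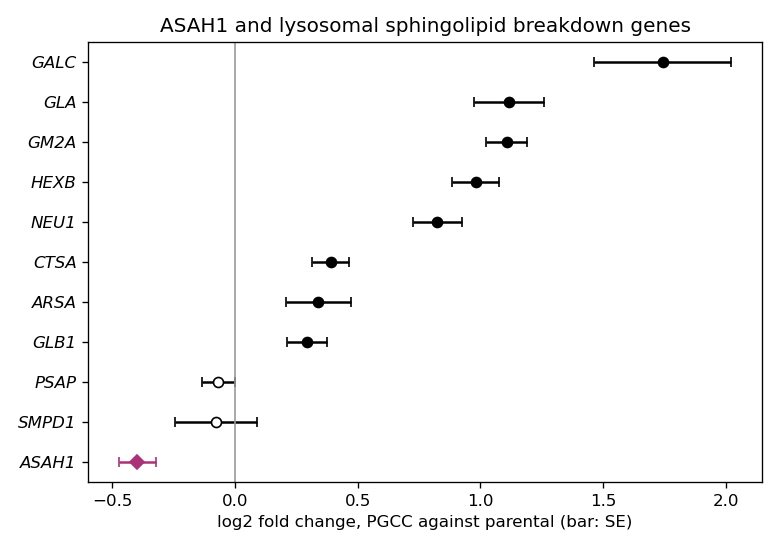
Log2 fold change with SE between PGCC and parental cells for ASAH1 (diamond) and the 10 tested genes of lysosomal sphingolipid breakdown (circles), from edgeR without the block; filled symbols passed the adjusted threshold. ASAH1 is the lowest at -0.40 and GALC the highest at 1.74.

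Enzymes that supply ceramide were called in both directions. Of 14 reported, 11 were tested, 4 were called higher and 4 lower in PGCC, with a median log2 fold change of 0.153 against -0.028 over all genes and with 47.4% of all genes called. The gene left out above belongs here too, so these shares are likewise raised by its absence. Besides GALC, SMPD3, neutral sphingomyelinase of the plasma membrane and Golgi, was called higher (1.06, SE 0.413, adjusted p = 0.0474) at means of 0.537 CPM in parental cells and 1.1 CPM in PGCC, with 2 of 6 and 5 of 6 libraries at the filter's cutoff of 0.569 CPM. With no filter beyond 1 count its adjusted p was 0.0659. GBA2, the non-lysosomal glucosylceramidase, fell from 314 to 157 CPM (-0.995, SE 0.251, adjusted p = 0.00488), and DEGS2, a desaturase and hydroxylase of dihydroceramide, fell from 0.866 to 0.465 CPM (-0.87, SE 0.287, adjusted p = 0.023). DEGS2 had 5 of 6 parental but 1 of 6 PGCC libraries at the cutoff, and its adjusted p was 0.06 with no filter beyond 1 count. With LCL521 in both populations 5 of 10 were called higher and 2 lower, against 48.9% of all genes.

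Consumers of ceramide and of sphingosine were called in both directions, against the 47.4% called of all genes. Of 6 enzymes that turn ceramide into other lipids, UGCG, which makes glucosylceramide, rose from 40.3 to 93.2 CPM (1.22, SE 0.12, adjusted p = 2.41e-06), SGMS1, a sphingomyelin synthase, fell from 53.8 to 40.5 CPM (-0.40, SE 0.116, adjusted p = 0.0105), and 4 were not called (median 0.103). With the block 2 of these 6 were called higher and 1 lower, against 56.2% of all genes called. Of 5 enzymes that act on sphingosine, the ceramidase product, or its phosphate, SGPP2, a sphingosine-1-phosphate phosphatase, rose from 0.669 to 2.97 CPM (2.15, SE 0.388, adjusted p = 0.000448), and its adjusted p was 0.000115 with no filter beyond 1 count. SGPL1, the lyase that ends the pathway by cleaving sphingosine-1-phosphate, fell from 108 to 50.9 CPM (-1.09, SE 0.226, adjusted p = 0.0013). The other 3 were not called without the block. The block called 3 of the 5 higher and 1 lower, against 56.2% of all genes called. The fit with LCL521 in both populations, without the block, also called 3 higher and 1 lower, against 48.9% of all genes. The median of the 5 without drug and without the block was 0.252, against -0.028 over all genes.

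Patterns across the 24 libraries were compared as a description, with points that share the population difference, the replicate sets and the scaling. Log2 CPM of ASAH1 correlated with that of ACER2 at Pearson r = -0.70 and of ACER3 at -0.47, and ACER2 with ACER3 at 0.46. Within conditions, with each condition's mean removed, these were -0.26, 0.31 and 0.04, so the pooled values followed mainly the difference between populations. By likeness of pattern, ASAH1 was closest to NANOS1 (r = 0.94), AGR2 (0.94) and C3orf80 (0.94), ACER3 to CHD1 (0.85), STK10 (0.84) and SCAF4 (0.84), and ACER2 to DBI (0.87), HELLS (0.86) and GINS1 (0.85). Correlations above 0.8 were common for ASAH1, with 9.49% of 10656 genes, against 0.122% for ACER3 and 1.19% for ACER2. Within conditions, the genes named for ASAH1 stood at r = 0.796, 0.717 and 0.66, in the order named. Those for ACER3 stood at 0.745, 0.756 and 0.729, and those for ACER2 at 0.721, 0.691 and 0.671. All were picked by their pooled values, and ACER2 rests on 3 to 27 counts per library.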

How the data were processed

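RNA was taken from PPC1 cells in 4 conditions of 6 libraries. Per the labels, the authors used CASAVA, STAR, HTSeq and DESeq2 with hg19. The deposited values are raw read counts per gene, whole numbers without normalization. Strand setting and annotation release are not given in the sources used here, so overlapping, antisense and sequence-sharing genes are uncertain. The table also lists gene length, position, identifier and symbol. Groups and replicate numbers came from the titles. The labels place LCL521 on day 5.

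Counts were tested with edgeR 4.0.16 in R 4.3.3 (quasi-likelihood test, TMM, filterByExpr with a minimum count of 10 and a total of 15) on the 12 libraries of 2 conditions. The difference of the drug effect used all 24. P-values were adjusted by Benjamini-Hochberg over all genes tested, with a threshold of 0.05. SEs were taken as the log2 change over the root of F. CPM values are counts of any gene, kept or not, scaled by the library sizes and TMM factors of the kept genes over 24 libraries. Log2 CPM carries a prior count of 2. Alternatives were DESeq2 1.42.0, RLE factors, library totals, other filters, all libraries in 1 fit, the replicate block, and left-out replicates or libraries. The model fits were run on simulated data with set changes in well-counted genes only. That run does not cover low counts such as those of ACER2, nor changes as small as those of ASAH1 and ACER3.

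Totals were 14835246 to 19906601 counts. Libraries of a condition differed by more than sampling noise (chi-square per degree of freedom 5.05 to 120 in 60 pairs). Same-numbered libraries deviated together: per comparison, the lowest of 6 correlations of their deviations from the group means was 0.237, 0.458, 0.385 and 0.171 (PGCC against parental cells, LCL521 in parental cells, LCL521 in PGCC, and populations with LCL521). The design text also places the 4 conditions of each run in parallel, so the numbers were taken as pairs.

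The members and gene lists were chosen with earlier results of these data known. A gene that was not called between the populations is not reported here and was left out of the counts and medians of the lists of lysosomal and ceramide-supplying genes, which raised both medians. The genes named were the 5 members, the relatives, at most the 2 largest called rises and 2 largest called falls of each list, and genes called for LCL521. Lysosomal genes left uncalled, ARSA, HEXA, ASAH2C and ADIPOR1 and ADIPOR2 were named after their values were seen. Promoters came from RefSeq.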

Additional observations from a re-analysis of the deposited data

Results flagged for a closer look

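Of 20 groups of 6 libraries, 1 for each gene and condition, 2 held a library set apart from the rest by a gap test at the 95% level, where chance flags about 1 in 20. ACER2 in parental cells with LCL521 had 1.42 CPM (24 counts) in replicate 2, and the gap to the next library was 0.651 of the group's range. ACER3 in PGCC with LCL521 had 69.1 CPM (1319 counts) in replicate 1, with a gap of 0.666 of the range.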

How the results depend on the processing

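Calls of ASAH1 and ACER2 between PGCC and parental cells, and of ASAH1 with LCL521 in both populations, kept direction and side of the threshold in each alternative that could test them. ACER2 could not be tested with at least 10 counts in every library. The replicate block raised the number of members called from 2 to 3 in both population comparisons, through ACER3 without drug and ACER2 with it, and it changed no other call of a member. The number called with LCL521 in both populations was 1 with no filter beyond 1 count, where ACER3 had an adjusted p of 0.0851. It ran from 1 to 3 as replicates were left out and was 1 without PGCC_LCL521 replicate 1. That setting and the 1 that left out the parental LCL521 library of replicate 2, as well as the blocked fits without a replicate, were chosen after seeing the data, as was the fit with no filter for genes of the lists.

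Signs turned among changes that were not called. For LCL521 in PGCC the log2 value of ACER2 was -0.048 (-0.051 with the block) without replicates 4 and 5, and that of ACER3 ran from -0.076 to 0.023 as replicates were left out (0.017 without replicate 2 and 0.021 without replicate 3, each with the block). The difference of the drug effect was 0.037 for ASAH1 without replicates 4 and 5, with and without the block. As replicates were left out it ran from -0.099 to 0.018 for ASAH1, -0.559 to 0.49 for ACER2 and -0.032 to 0.088 for ACER3. With library totals in place of TMM, the median log2 change of all genes between PGCC and parental cells moved from -0.028 to 0.0663, the genes called higher and lower from 3186 and 3355 to 3820 and 2521, and ACER3 passed the threshold (adjusted p = 0.0161). ACER3 also passed with at least 10 counts in every library (adjusted p = 0.0396). With LCL521 in both populations ACER2 passed under DESeq2 (0.0477), library totals (0.0495) and all 24 libraries in 1 fit (0.0276), each an adjusted p, which raised the number called to 3. The cause was not tested. Depth limits ACER2, ASAH2 and ACER1, whose libraries hold few reads.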
